A study of Rattus rattus with 23 samples.

Results

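Transcript levels of the regulators that commit airway cells to the multiciliated fate were examined in nasal respiratory epithelium of rats that inhaled hydrogen sulfide (H2S). The genes were chosen by symbol as a named group of 8: Foxj1, Rfx1, Rfx2, Rfx3, Myb, Ccno, Tp73 and Foxn4. Of the 31099 probe sets on the array, 9 carried 1 of these symbols, and they belonged to 6 of the 8 genes. Tp73 and Foxn4 were not analysed here. Rfx1, Rfx3 and Ccno had 2 probe sets each, and Foxj1, Rfx2 and Myb had 1 each.

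Multiciliated cells carry the beating cilia that move mucus over the airway surface, and they arise from basal and secretory cells during repair. In mouse and frog epithelia, the coiled-coil regulators Gmnc and Mcidas act with E2F proteins at the start of the pathway, and Myb and p73, the product of Tp73, act early as well. The cyclin-like protein Ccno then takes part in the mass production of centrioles, and Foxj1 and the RFX factors, which bind X-box sequences, switch on genes of the motile axoneme. Rfx2 and Rfx3 are known mainly for ciliary genes, whereas Rfx1 is broadly expressed in many tissues. Ccno is counted here with the factors although it is a cyclin family protein and not known to bind DNA.

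The study exposed male Sprague-Dawley rats through the nose to 200 ppm H2S or to air for 3 h a day, and captured the respiratory epithelium by laser from the injured and regenerating region. The groups, named by title, were H2S at 3 h (animals 3 to 6), 6 h (animals 8 to 10) and 24 h (animals 11 to 14) after the start of 1 exposure, H2S at 144 h after the first of 5 daily exposures (animals 23 to 26), air at 24 h (animals 15 to 18) and air at 144 h (animals 19 to 22). There was 1 array per animal and 23 arrays in all, and air at 24 h served as the control for 3 h, 6 h and 24 h, so those comparisons share their air animals. No air group was taken at 3 h or 6 h, so exposure and time of sampling cannot be told apart there. The labels give an age of 60 days, whereas the design text gives 10 weeks, and they name the organism Rattus rattus beside the taxonomy ID 10116, which is that of Rattus norvegicus. The treatment fields of animals 6, 14 and 18 state 5 days of exposure although their titles place them at 3 h, 24 h and 24 h. The fields of the air animals also list 200 ppm, so the titles alone separate air from H2S. Values were computed with and without these 3 animals.

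The captured tissue carried the markers of ciliated cells on every array. Tekt1, a protein of the axoneme's tubule wall, ranged from 368 to 6184 units of signal with a median of 1755, and Rsph1, a radial spoke protein, ranged from 395 to 8002 with a median of 2141. The bone genes Bglap, with at least 4987, and Ibsp, with at least 4115, were also high on every array. The cartilage genes were not: Col2a1 ranged from 5.02 to 11132 with a median of 69.0, and Acan from 22.5 to 9818 with a median of 304. Of the olfactory markers, Omp had a median of 49.5 and reached 529, Cnga2 had a median of 67.3 and reached 268, Gnal had a median of 166 and reached 1162, and Cyp2g1 had a median of 244 and reached 4881. Animals 18 and 22, both breathing air, stood apart. The median correlation with the other arrays was 0.408 for animal 18 and 0.685 for animal 22, against 0.82 to 0.90 for the other 21 arrays. The labels' ratio for the RNA, which they do not define further, was 2.49 and 2.12 in these 2 animals and 1.78 to 1.96 in the others. The RNA integrity number, given for 19 arrays, was 2.6 in animals 13 and 18. It was highest in animal 14, at 10, and lowest in animal 26, at 1.7.

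Signals are the submitters' intensities on a linear scale. Tests used log2(signal + 16), a scale on which differences of weakly expressed genes come out too small, and a probe set was tested if it was above the median of its own array on at least 3 arrays. Of the 9 factor probe sets, 6 passed, 1 for each gene. The second probe sets of Rfx1, Rfx3 and Ccno did not pass. Their median signals were 21.2, 44.2 and 10.5, and they were under 48 units on 17, 12 and 18 of the 23 arrays. In a fit without the filter, the second probe set of Rfx3 differed by 0.39 between H2S and air at 144 h. That of Ccno differed from air by -0.12 at 24 h and -1.11 at 144 h, and by -0.02 between the air groups. The tested probe sets had 1.39 for Rfx3, and 2.13, 0.51 and 3.01 for Ccno. Over 19822 probe sets, limma's moderated test with Benjamini-Hochberg adjustment made few calls at an adjusted p under 0.05. It called 0.0807% of the probe sets at 3 h against air, 0.00504% at 6 h, 0.0101% at 24 h and 0% at 144 h. The steps between exposed groups gave 0.00504% for 6 h against 3 h, 0.0101% for 24 h against 6 h and 0% for 144 h against 24 h. For air, 144 h against 24 h gave 0%, and so did the interaction, the exposure effect at 144 h minus that at 24 h. None of the 6 factors was called in any of these 9 comparisons, and with so few calls overall a count of 0 says little about the factors. Unadjusted p values under 0.05 came to 1942 probe sets at 3 h, 1151 at 6 h, 1603 at 24 h and 1546 at 144 h against air.

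Foxj1, the forkhead factor that switches on motile cilia genes, showed no called difference. Its signals were 327, 700, 986 and 1672 in the animals at 3 h after H2S, 465, 732 and 278 at 6 h, 921, 1149, 601 and 1217 at 24 h, and 1055, 1103, 578 and 1746 at 144 h. They were 500, 595, 756 and 721 in air at 24 h and 594, 596, 1155 and 2512 in air at 144 h. The spread within a group was wide: the animals at 3 h alone covered most of the range, and the highest value of all was that of animal 22, an air control. The mean log2 value was lowest at 6 h after H2S (8.89 ± 0.67, SD, n = 3), followed by air at 24 h (9.35 ± 0.27, n = 4), H2S at 3 h (9.65 ± 0.96, n = 4), H2S at 24 h (9.90 ± 0.45, n = 4), air at 144 h (10.00 ± 0.97, n = 4) and H2S at 144 h (10.05 ± 0.64, n = 4). Each group differed from the next by less than the larger SD of the pair, and exposed and air groups overlapped at every time.

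Against air, the log2 difference of Foxj1 was 0.30 at 3 h (95% confidence interval -0.72 to 1.32), -0.46 at 6 h (-1.56 to 0.64), 0.55 at 24 h (-0.47 to 1.57) and 0.05 at 144 h (-0.97 to 1.06). Their adjusted p values by limma were 0.842, 0.820, 0.715 and 0.990. Each interval is about 2 log2 units wide. The sign at 3 h depended on animal 6, whose treatment field conflicts with its title: without it the difference was -0.055. In a fit of 19 arrays that adjusts for RNA integrity the difference at 3 h was -0.55. At 144 h it ran from -0.20 to 0.48 with single animals left out, the lowest without animal 19 and the highest without animal 22. The difference for 24 h against 6 h was 1.01 (SE 0.53, adjusted p = 1.00), and the 2 groups overlapped only through animal 13, which at 24 h had less Foxj1 than animal 9 at 6 h.

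**Figure D1:**
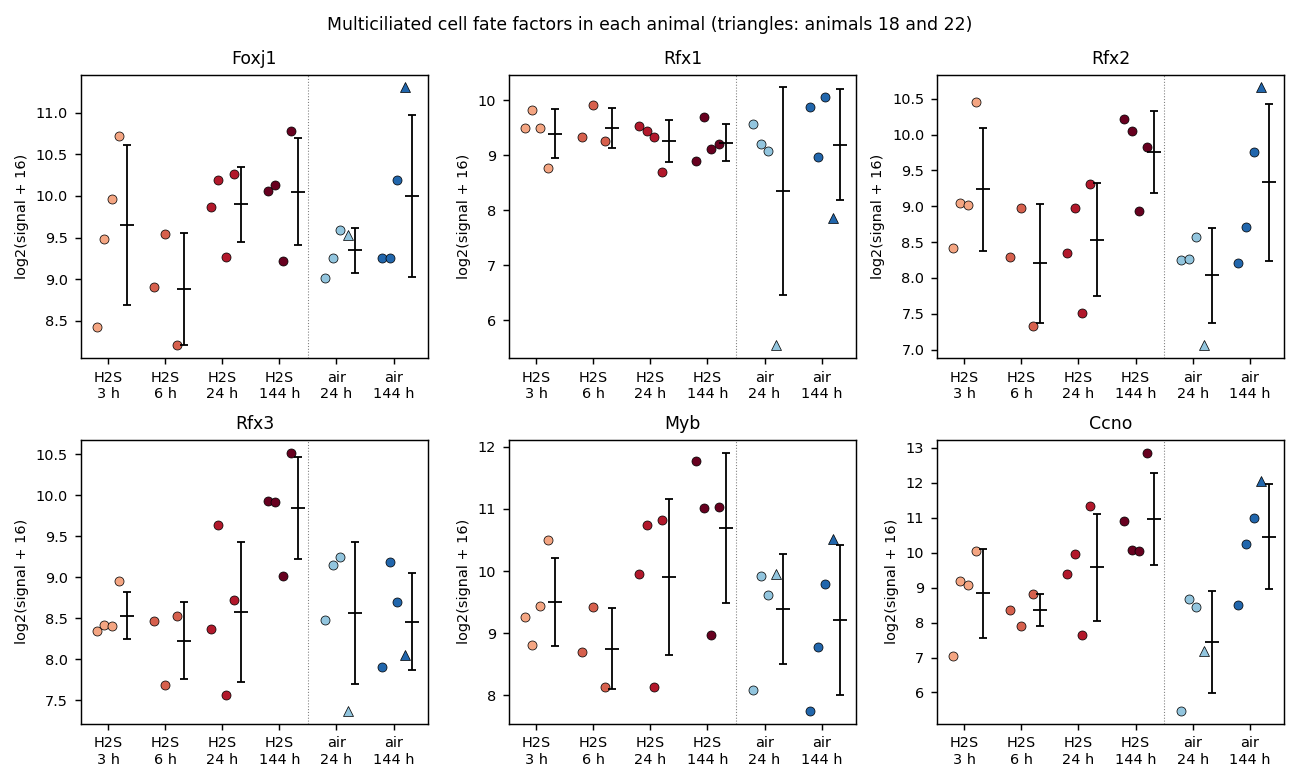
Log2(signal + 16) of each factor (vertical axis) in each animal of the 6 groups (horizontal axis), with the group mean and SD in black and animals 18 and 22 as triangles. All groups overlap with their controls, the 144 h H2S group has the highest mean for every factor but Rfx1, and animal 18 lies far below the other air animals for Rfx1.

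Rfx3, which in mouse is needed for the growth of motile cilia, had its highest mean after the repeated exposures. Its signals were 308, 325, 324 and 482 in the animals at 3 h after H2S, 339, 191 and 352 at 6 h, 315, 778, 174 and 405 at 24 h and 962, 950, 502 and 1451 at 144 h. In air they were 340, 551, 593 and 150 at 24 h and 224, 566, 398 and 250 at 144 h. At 144 h, 3 of the 4 H2S animals were above every air animal of the series, and animal 25 was below animal 20 of the air group. The mean log2 value at 144 h was 9.85 ± 0.62 after H2S and 8.46 ± 0.59 in air (SD, n = 4 each).

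The difference of Rfx3 at 144 h was 1.39 (SE 0.46, 95% interval 0.43 to 2.34), with an unadjusted p of 0.00640 and an adjusted p of 0.580 by limma. It ranged from 1.16 to 1.66 when single animals were left out and was 1.25 without animals 18 and 22, and none of these fits called it. Against the exposed animals at 24 h the difference at 144 h was 1.27 (SE 0.46, unadjusted p = 0.0113, adjusted p = 1). The exposure effect at 144 h exceeded that at 24 h by 1.37 (SE 0.65, adjusted p = 0.946). At 3 h, 6 h and 24 h the difference from air was -0.03, -0.33 and 0.01, with intervals from -0.98 to 0.92, -1.36 to 0.70 and -0.94 to 0.97. From low to high, the mean log2 values of Rfx3 were 8.23 ± 0.47 at 6 h after H2S, 8.46 ± 0.59 in air at 144 h, 8.53 ± 0.29 at 3 h after H2S, 8.56 ± 0.86 in air at 24 h, 8.57 ± 0.85 at 24 h after H2S and 9.85 ± 0.62 at 144 h after H2S. Among the first 5 groups, neighbours differed by less than the larger SD of the pair. The step from the fifth to the 144 h H2S group exceeded the SD of both. Without animal 18 the air mean at 24 h was 8.96, and the differences at 3 h, 6 h and 24 h were then -0.43, -0.73 and -0.39.

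Myb, a factor of early differentiating multiciliated cells in mouse and human airway, was also highest on average at 144 h after H2S. The signals were 598, 433, 681 and 1429 in the animals at 3 h after H2S, 401, 672 and 264 at 6 h, 971, 1696, 264 and 1786 at 24 h and 3481, 2066, 485 and 2081 at 144 h. They were 255, 950, 767 and 976 in air at 24 h and 200, 422, 874 and 1453 in air at 144 h. Animals 23, 24 and 26 had more Myb than any other animal of the series, whereas animal 25 of the same group had less than 2 of its 4 air controls. By mean log2 value the groups ran from H2S at 6 h (8.75 ± 0.65, n = 3) through air at 144 h (9.21 ± 1.21), air at 24 h (9.39 ± 0.89), H2S at 3 h (9.50 ± 0.71) and H2S at 24 h (9.91 ± 1.25) to H2S at 144 h (10.70 ± 1.21, n = 4 for each but the first). Each group differed from the next by less than the larger SD of the pair.

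At 144 h the difference of Myb from air was 1.49 (SE 0.68, 95% interval 0.09 to 2.89), with an unadjusted p of 0.0385 and an adjusted p of 0.636 by limma. Leaving out single animals gave 1.00 to 2.07, the lowest of them without animal 19, and leaving out animals 18 and 22 gave 1.92, none of them called. At 3 h, 6 h and 24 h the differences from air were 0.11, -0.64 and 0.52, and every interval included 0. Without animal 18 the one at 3 h was 0.30. Air at 144 h against air at 24 h gave -0.18 (adjusted p = 0.960), and -0.43 without animals 18 and 22.

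Rfx2, an RFX factor known in frog and mouse from ciliated and sperm-forming cells, varied as much between the air groups as between exposure and air. The signals were 327, 511, 503 and 1389 at 3 h after H2S, 298, 490 and 145 at 6 h, 311, 486, 166 and 618 at 24 h and 1178, 1043, 473 and 894 at 144 h. In air they were 289, 292, 363 and 117 at 24 h and 280, 402, 848 and 1598 at 144 h. The highest values were those of animal 22 in air at 144 h and of animal 6 at 3 h after H2S. The exposed groups overlapped with their air controls at all 4 times.

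From low to high, the mean log2 values of Rfx2 were 8.04 ± 0.67 in air at 24 h, 8.20 ± 0.83 at 6 h after H2S, 8.53 ± 0.79 at 24 h, 9.23 ± 0.86 at 3 h, 9.33 ± 1.09 in air at 144 h and 9.76 ± 0.57 at 144 h after H2S (SD, n = 4, and 3 at 6 h). Each group differed from the next by less than the larger SD of the pair. The difference from air was 1.20 at 3 h (SE 0.55, unadjusted p = 0.0407, adjusted p = 0.495 by limma), 0.17 at 6 h, 0.50 at 24 h and 0.43 at 144 h. At 3 h it was 0.79 without animal 6, 0.87 without animal 18 and 0.35 in a fit of 19 arrays that adjusts for RNA integrity (0.77 in those arrays unadjusted). Without animals 18 and 22 it was -0.16 at 6 h, 0.17 at 24 h and 0.87 at 144 h. Between the air groups, 144 h minus 24 h, it was 1.30 (SE 0.55, adjusted p = 0.577), and 0.53 without animals 18 and 22. H2S at 144 h against H2S at 24 h gave 1.22 (SE 0.55, adjusted p = 1).

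Ccno had the widest range of the 6 factors. Its signals were 115, 564, 523 and 1053 at 3 h after H2S, 311, 222 and 432 at 6 h, 648, 976, 186 and 2559 at 24 h and 1894, 1064, 1039 and 7417 at 144 h. In air they were 28.5, 393, 332 and 130 at 24 h and 349, 1202, 2041 and 4257 at 144 h. The lowest value of the series belonged to animal 15 in air at 24 h and the highest to animal 26 at 144 h after H2S. Exposed and air animals overlapped at each time, at 24 h through animal 13 alone.

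The mean log2 values of Ccno were 7.45 ± 1.47 in air at 24 h, 8.35 ± 0.46 at 6 h after H2S, 8.84 ± 1.28 at 3 h, 9.58 ± 1.52 at 24 h, 10.46 ± 1.49 in air at 144 h and 10.97 ± 1.32 at 144 h after H2S. Each group differed from the next by less than the larger SD of the pair. At 24 h the difference from air was 2.13 (SE 0.86, 95% interval 0.35 to 3.92), with an unadjusted p of 0.0213 and an adjusted p of 0.612 by limma. It was 1.48 without animal 15 and 1.55 without animal 14, and 1.17 in a fit of 19 arrays that adjusts for RNA integrity (1.48 in those arrays unadjusted). The air groups differed more than that: air at 144 h exceeded air at 24 h by 3.01 (SE 0.86, unadjusted p = 0.00202, adjusted p = 0.542), and by 2.39 without animals 18 and 22. At 144 h the difference between H2S and air was 0.51 (95% interval -1.27 to 2.30), or 1.05 without animal 22, and at 3 h and 6 h the differences from air at 24 h were 1.39 and 0.90, both with intervals that included 0.

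Rfx1, the broadly expressed RFX factor, showed the narrowest spread among the exposed animals. The signals were 705, 893, 702 and 420 at 3 h after H2S, 625, 952 and 598 at 6 h, 723, 683, 632 and 400 at 24 h and 462, 816, 536 and 575 at 144 h. In air they were 745, 578, 522 and 30.7 at 24 h and 929, 486, 1056 and 216 at 144 h. The lowest value of each air group was that of the array that stood apart, animal 18 or animal 22. The exposed groups had mean log2 values from 9.23 ± 0.34 at 144 h to 9.50 ± 0.36 at 6 h, against 8.35 ± 1.88 in air at 24 h and 9.19 ± 1.01 in air at 144 h. The differences from air were 1.04, 1.15 and 0.90 at 3 h, 6 h and 24 h and 0.03 at 144 h, with adjusted p values of 0.575, 0.781, 0.661 and 0.992. The first 3 of these share animal 18 among their controls, and without it they were 0.11, 0.22 and -0.03. Without animal 22 the difference at 144 h was -0.41.

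**Figure D2:**
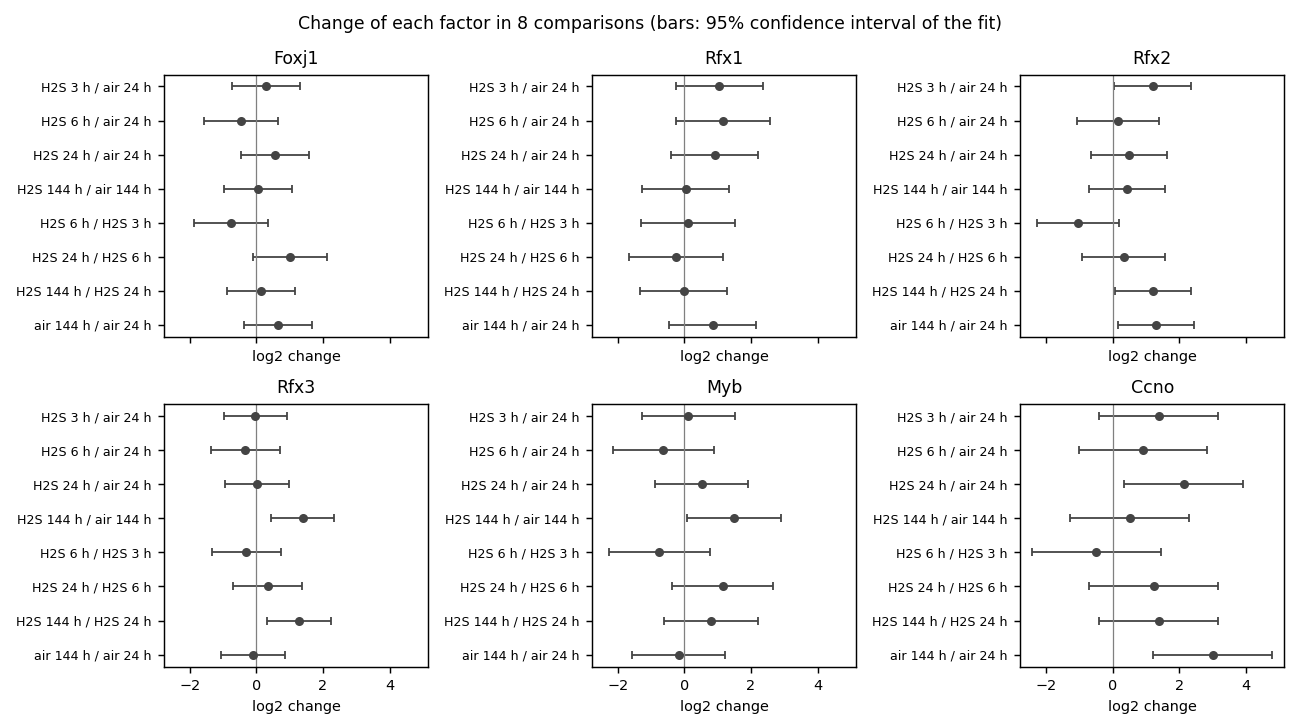
Log2 change of each factor (horizontal axis) in 8 comparisons (vertical axis, first group over second), with the 95% confidence interval of the limma fit. Most intervals include 0. Those that do not are Rfx3 and Myb in H2S over air at 144 h, Ccno in H2S over air at 24 h, Rfx2 in H2S at 3 h over air, Rfx2 and Rfx3 in H2S at 144 h over 24 h, and Ccno and Rfx2 in air at 144 h over 24 h, all with adjusted p values of at least 0.495.

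The regulators upstream of and beside these factors were taken from a list of 22 genes, of which 18 had a probe set and 17 were tested. None was called in any comparison, and Mcidas was not analysed here. The median change of the 17 was 0.31, 0.27, 0.21 and 0.09 at 3 h, 6 h, 24 h and 144 h against air, beside 0.14, 0.10, 0.14 and 0.01 for all 11249 genes tested. Gmnc, a geminin family protein without which mice form no multiciliated cells, stood out by its values and is described for that reason. Its signals were 187, 91.2, 228 and 173 at 3 h after H2S, 35.3, 111 and 110 at 6 h, 478, 976, 124 and 1903 at 24 h and 691, 491, 435 and 621 at 144 h. In air they were 118, 271, 321 and 588 at 24 h and 147, 382, 265 and 365 at 144 h.

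The 3 animals at 6 h after H2S had less Gmnc than each of the 4 air animals at 24 h and each of the 4 H2S animals at 24 h, and all 4 H2S animals at 144 h had more than all 4 air animals at 144 h. Such a separation was seen for 2.02% of all probe sets in the first case, 3.40% in the second and 2.50% in the third. The difference for 24 h against 6 h was 2.69 (SE 0.64, unadjusted p = 0.000367, adjusted p = 0.342 by limma). Over single animals left out it ranged from 2.13 to 3.39, and it passed the threshold without animal 13 (3.39, adjusted p = 0.0275) and with array weights (3.20, adjusted p = 0.00914). Against air, Gmnc differed by -0.74 at 3 h, -1.67 at 6 h (SE 0.64, unadjusted p = 0.0159, adjusted p = 0.781), 1.02 at 24 h and 0.97 at 144 h. A further 3 regulators had an unadjusted p under 0.05 by limma. Mycl, a Myc family factor, had 1.33 at 24 h against air (adjusted p = 0.612). Cdk2, a cyclin-dependent kinase, had -1.47 at 144 h against air (adjusted p = 0.624). Ccna1, a cyclin, had 2.20 for H2S at 144 h against H2S at 24 h (adjusted p = 1). In the same comparisons and directions, 4.8%, 4% and 1.32% of all probe sets had an unadjusted p under 0.05. Thus 1 of 17 regulators in each says little about the list.

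Further lists held genes of centriole amplification (31 genes, 22 tested) and of the motile axoneme (62 genes, 25 tested). No member of either list was called in any comparison. Of the 25 axoneme genes, 23 had a positive difference from air at 3 h, 2 at 6 h, 21 at 24 h and 24 at 144 h, and the medians were 0.73, -0.62, 0.34 and 1.24. For all genes tested the medians were 0.14, 0.10, 0.14 and 0.01. At 144 h, 9 of the 25 were higher with an unadjusted p under 0.05, as were 3.8% of all probe sets, among them Rsph3 of the radial spokes (1.55), Ropn1l, also of the radial spokes (1.62), Tekt2 (1.43) and the dynein heavy chain Dnah2 (1.86), with adjusted p values of 0.580 to 0.603. The median at 144 h was 0.67 without animal 19 and 1.59 without animals 18 and 22, and that at 6 h was -0.05 without animal 10. Markers of other cell types also differed from air at 3 h, 6 h and 24 h. Their medians were 0.83, 0.61 and 0.95 for basal and 0.70, 0.12 and -0.68 for leukocyte markers. Secretory markers had 0.08, -0.51 and 0.40, and olfactory markers -0.63, -0.20 and 0.27. Cartilage, bone and stroma markers had -0.11, 0.30 and -0.21. The part of these cell types was not tested.

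Between exposed groups, all 25 axoneme genes were lower at 6 h than at 3 h (median -1.40, and 10 with an unadjusted p under 0.05, as were 1.96% of all probe sets), all 25 were higher at 24 h than at 6 h (median 0.98) and all 25 were higher at 144 h than at 24 h (median 1.22, 8 with an unadjusted p under 0.05, as were 1.32% of all probe sets). The medians of all genes were -0.04, 0.03 and -0.02. In air, 22 of the 25 were also higher at 144 h than at 24 h (median 0.50, beside 0.10 for all genes). The exposure effect at 144 h minus that at 24 h had a median of 0.72, beside -0.14 for all genes. Markers of other cell types differed in the same steps between exposed groups, and their part was not tested. For 6 h against 3 h, 8 of 11 secretory markers were lower (median -0.81), all 17 leukocyte markers were lower (-0.68) and 10 of 14 cartilage, bone and stroma markers were higher (0.36). For 24 h against 6 h, all 11 secretory markers were higher (0.95), 13 of 17 leukocyte markers were lower (-0.35) and 12 of 14 cartilage, bone and stroma markers were lower (-0.50). For 144 h against 24 h the medians of these 3 lists were -0.15, 0.26 and 0.19. Olfactory markers had medians of 0.11, 0.78 and -0.54 in the 3 steps in turn, and basal markers had -0.43, 0.28 and 0.31. A single animal carried part of the axoneme values. The axoneme median was 0.51 for 24 h against 6 h without animal 10, and 0.73 for 144 h against 24 h without animal 13. Since RNA was taken from a piece of epithelium, fewer ciliated cells and less RNA per ciliated cell cannot be told apart.

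The centriole list had medians of 0.47, 0.04, 0.48 and 0.60 against air at 3 h, 6 h, 24 h and 144 h, lower than those of the axoneme list at 3 h and 144 h and higher at 6 h and 24 h. At 3 h, 14 of the 22 genes had a positive difference, and at 6 h 11 did, beside 55.4% and 55% of all probe sets. At 144 h, 19 of the 22 genes had a positive difference from air, as did 48.4% of all probe sets. Of these genes, 7 had an unadjusted p under 0.05, as did 3.8% of all probe sets in that direction. Among the 7 were Cenpj (1.43) and Cep135 (1.14), which build procentrioles. The centrin Cetn2 (1.24) and Odf2 of the centriole appendages (1.33) were also among them. Each of these named genes had an adjusted p of 0.580 by limma. At 24 h, 19 of 22 were positive, as were 54.9% of all probe sets. Among the 19 was Plk4, the kinase that starts centriole duplication (1.90, adjusted p = 0.562 by limma). All 29 proliferation genes were also higher than in air at that time (median 1.70), and the part of cell division in the centriole values was not tested. The median of the centriole list at 24 h was 0.30 without animal 14, and that at 144 h was 0.40 without animal 19. Between the air groups, 15 of the 22 genes were higher at 144 h than at 24 h (median 0.31), as were 55.7% of all probe sets. Deup1, a deuterosome protein that amplifies centrioles in multiciliated cells, had a difference of 1.81 at 3 h and 1.40 at 24 h against air (adjusted p = 0.459 and 0.612), and 1.68 for air at 144 h against air at 24 h (adjusted p = 0.585). These comparisons were picked by their values. Its differences from air at 6 h and 144 h are not given here, and the highest of the list at these times were 1.11 and 1.43.

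**Figure D3:**
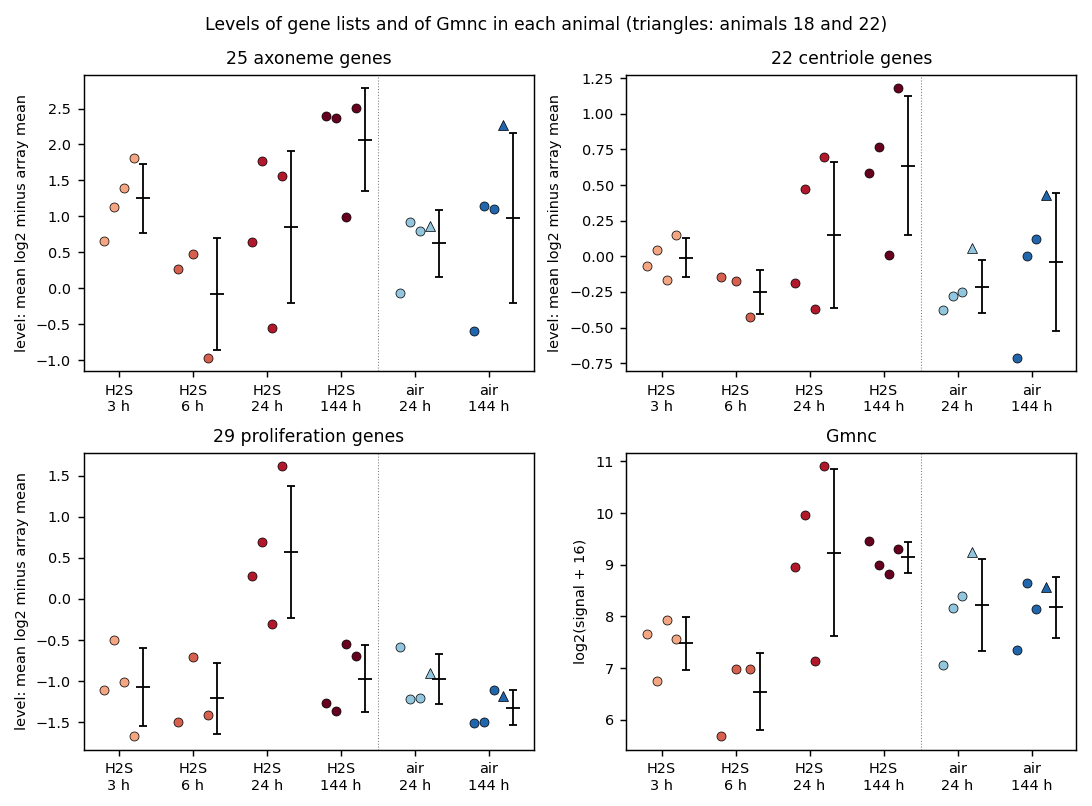
Level of 3 gene lists (mean log2 value of the genes minus the mean of all genes on the array) and log2(signal + 16) of Gmnc in each animal of the 6 groups, with the group mean and SD in black and animals 18 and 22 as triangles. Axoneme levels were lowest at 6 h and highest at 144 h after H2S, proliferation levels were highest at 24 h after H2S, and Gmnc was lowest at 6 h.

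Proliferation genes followed another course. All 29 were higher at 24 h after H2S than in air, with a median of 1.70 and 22 with an unadjusted p under 0.05, as were 4.8% of all probe sets, and all 29 were higher at 24 h than at 6 h (median 1.88), whereas at 144 h 28 of the 29 were lower than at 24 h (median -1.52). None was called. The level of the list, the mean log2 value of its genes minus the mean of all genes on the array, was 0.57 ± 0.81 in H2S animals and -0.98 ± 0.30 in air animals at 24 h (SD, n = 4 each). The axoneme level at 24 h was 0.85 ± 1.06 in H2S and 0.63 ± 0.46 in air, and at 144 h it was 2.07 ± 0.72 in H2S and 0.98 ± 1.18 in air.

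Other cell types and RNA quality also differed between the groups at 144 h, where Rfx3 and Myb had their largest differences from air. Of 14 cartilage, bone and stroma markers tested, 12 were lower after H2S, with a median of -0.79 and 3 with an unadjusted p under 0.05, as were 4% of all probe sets. Their summed signal ran from 146840 to 192550 in H2S animals and from 140880 to 554070 in air animals. Neither Bglap nor Ibsp was near 0, although Col2a1 had a lowest signal of 5.02 over all arrays of the series. Of 12 basal cell markers, 8 were higher, with a median of 0.45, and the summed signal ran from 29435 to 140670 in H2S and from 13275 to 52973 in air. Secretory markers had a median of -0.03 and leukocyte markers of 0.20 at that time. The RNA integrity number was 1.7 to 5.1 in H2S and 5.1 to 6.9 in air (exact permutation test, two-sided p = 0.0571, n = 4 each), and the array median was lower in H2S at the same exact p of 0.0571. The groups met only at an integrity number of 5.1, so an adjustment can hardly separate RNA integrity from exposure at 144 h. With that limit, Rfx3 had a difference of 1.51 and Myb one of 1.87 when adjusted for RNA integrity. The part of the other cell types in these differences was not tested.

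Across the 23 animals, 5 of the 6 factors varied together with the axoneme genes, and for 4 of them the relation also held inside the groups. The relation was not computed over all genes, so the share of genes that vary in this way is not known. With the level of the 25 axoneme genes, Pearson's r was 0.88 for Myb, 0.85 for Rfx2, 0.79 for Foxj1, 0.72 for Ccno and 0.64 for Rfx3, and Spearman's rho was 0.836, 0.887, 0.809, 0.791 and 0.619. Adjusted over the 12 relations computed, the permutation p values of r were 6e-05, 6e-05, 8e-05, 0.00042 and 0.00202, and those of rho ranged from 4e-05 to 0.00482. The smallest unadjusted p that the permutations can give is 1e-05. Rfx1 had an r of -0.217 and a rho of -0.364, with adjusted p values of 0.612 and 0.177. Without the 2 animals farthest from the median axoneme level, r was 0.855 for Myb, 0.845 for Rfx2, 0.758 for Foxj1, 0.814 for Ccno, 0.685 for Rfx3 and -0.148 for Rfx1.

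After subtracting each group's mean, which leaves only differences among animals of 1 group, r was 0.904 for Myb, 0.841 for Rfx2, 0.809 for Foxj1 and 0.741 for Ccno, with adjusted permutation p values of 0.00018, 0.00036, 0.00012 and 0.00162 when animals were permuted only inside their group. Their within-group rho was 0.864, 0.846, 0.815 and 0.637, with adjusted permutation p values from 0.00024 to 0.015, and r without the 2 farthest animals was 0.864, 0.785, 0.817 and 0.623. For Rfx3 the within-group r was 0.477 (adjusted permutation p = 0.162), its rho was 0.42 (adjusted permutation p = 0.184), and r was 0.287 without the 2 farthest animals, so that its relation did not pass the threshold within groups. All values share the subtraction of the array mean. Without it, r over the 23 animals was 0.881 for Myb, 0.861 for Rfx2, 0.800 for Foxj1, 0.735 for Ccno and 0.658 for Rfx3. With the level of the 29 proliferation genes, r lay between -0.077 and 0.205 for the 6 factors, with no adjusted p under 0.612. Animals 10 and 13, exposed and taken at 6 h and 24 h, and animal 19 in air had the lowest axoneme levels, at -0.97, -0.56 and -0.59.

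**Figure D4:**
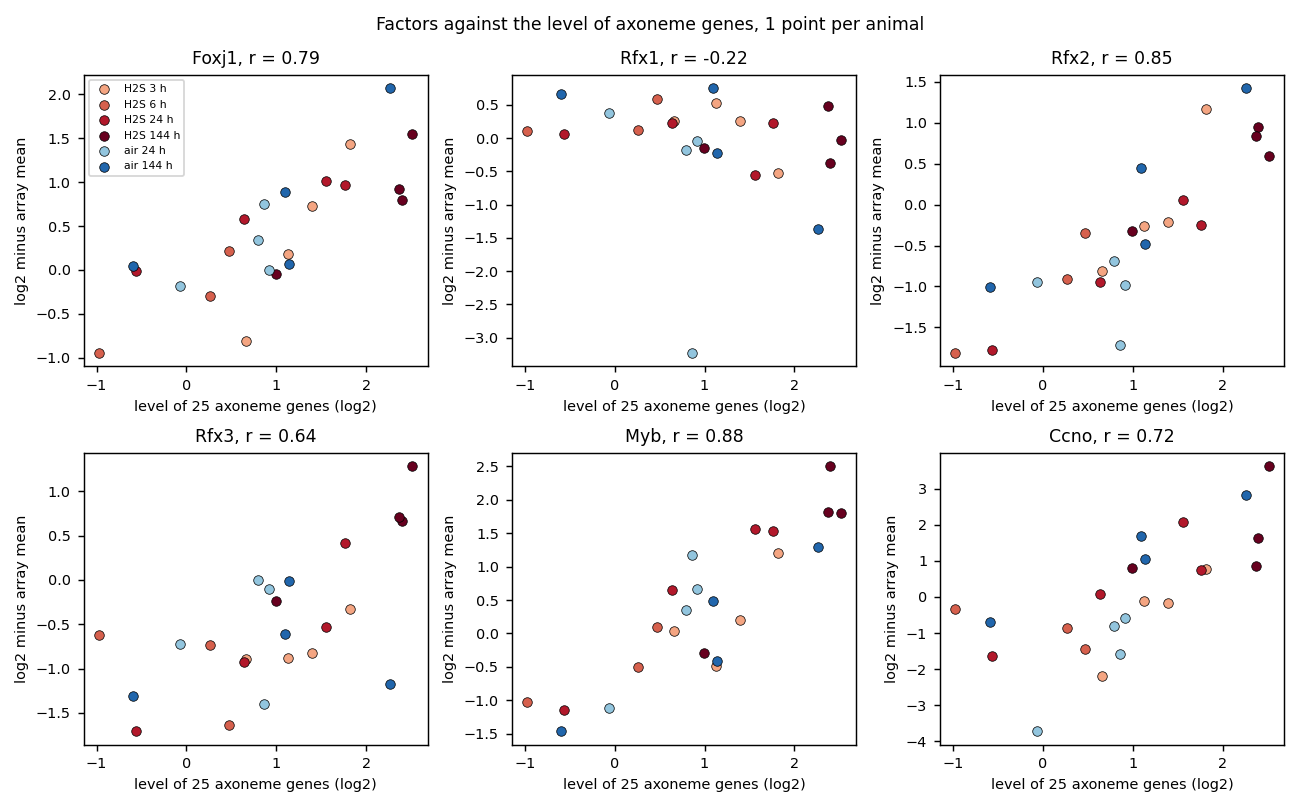
Log2 value of each factor minus the array mean (vertical axis) against the level of the 25 axoneme genes (horizontal axis), with 1 point per animal coloured by group and Pearson's r over 23 animals in each title. Myb, Rfx2, Foxj1, Ccno and Rfx3 increase with the axoneme level, whereas Rfx1 has an r of -0.22 and 1 animal far below the rest.

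The factors also varied with each other. Of the 15 pairs, 9 had a Pearson r with an adjusted permutation p under 0.05, and none of the 5 pairs with Rfx1 did. The strongest were Foxj1 with Rfx2 (r = 0.766, rho = 0.777), Foxj1 with Myb (r = 0.743, rho = 0.824) and Rfx2 with Ccno (r = 0.722, rho = 0.766), with adjusted permutation p values of 0.000225, 0.000225 and 0.00055 for r and of 0.000225, 0.00015 and 0.00025 for rho. Without the 2 farthest animals of the first factor their r was 0.654, 0.743 and 0.697. Foxj1 with Rfx3 had an r of 0.297 (adjusted permutation p = 0.208). Without animals 18 and 22 its r was 0.513 (adjusted permutation p = 0.0274), and all 10 pairs without Rfx1 then passed by r. Within groups 6 of the 15 passed by r, and none of the pairs with Rfx3 did. Rfx3 with Ccno had a within-group r of 0.532 (adjusted permutation p = 0.0644) and a rho of 0.592 (adjusted permutation p = 0.0323). These pairs were examined after the data were seen, and pairs of other genes were not tested. Gmnc had an r of 0.605 and a rho of 0.632 with the axoneme level (permutation p = 0.00235 and 0.00159, the first 0.0047 adjusted over 2 relations), and an r of 0.52 with the proliferation level (permutation p = 0.011, adjusted 0.011) whose rho was 0.279 (permutation p = 0.198) and whose r was 0.0988 without the 2 farthest animals.

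The genes whose pattern over the 23 arrays was most like each factor were named by Pearson's r on log2 values minus the array mean, as a description without a test. For Foxj1 they were Ccdc78 (0.892), which takes part in centriole amplification in frog, Dnaaf1 (0.889), which helps assemble axonemal dyneins, Tgm2 (0.879), Liat1 (0.876) and Zmynd10 (0.871), another dynein assembly factor. For Myb they were Cfap77 (0.914), Cfap276 (0.901), Rsph1 (0.899), MGC94891 (0.896) and Fam216b (0.894). For Rfx2 they were Rabl2 (0.919), the dynein heavy chain Dnah1 (0.912), Lrrc23 (0.912), a radial spoke protein, Spef1 (0.901) and Plaat5 (0.901).

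Rfx3 was most like Tbcel (0.900), the small GTPase Arl6 of ciliary trafficking (0.893), Rhbdd1 (0.865), Zc2hc1a (0.856) and Bbox1 (0.854). Ccno was most like Plaat5 (0.845), Dapl1 (0.833), Dynlt1 (0.823), Nudc (0.822) and Tmem53 (0.816). Rfx1 was most like Ppie, Vamp4, Akap10, Prkacb and Copa, with r from 0.921 to 0.941 over 23 arrays and from 0.595 to 0.783 without animals 18 and 22.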

How the data were processed

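RNA of laser-captured nasal respiratory epithelium was isolated with a PicoPure column, amplified in 2 rounds and hybridised to Affymetrix Rat230_2 arrays, per the labels' protocols. The deposited values are intensity per probe set on a linear scale. Per the submitters' processing notes the software was GCOS 1.0. Which settings it ran with is not stated. The trimmed mean of each array (2% left out at each end) was 500, so no further normalization was applied. Array medians ran from 136 to 341.

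Values were taken as log2(intensity + 16). Probe sets above their array's median on at least 3 arrays were tested, 19822 of 31099, with 57 control probe sets left out. Gene names are those of the platform annotation, in which 20832 probe sets have 1 symbol, 436 have several and 9831 have none. For each of 11249 genes the tested, singly annotated probe set of highest mean log2 value was used. Genome positions and sequences were not used here. The number of arrays limits the precision. Whether the animals of a group were housed or exposed separately is not stated.

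Limma 3.58.1 under R 4.3.3 gave the comparisons: lmFit with a mean for each group over the 23 arrays, then eBayes, two-sided, adjusted by Benjamini-Hochberg over all probe sets tested, with a threshold of 0.05. The fit was tested on simulated data. Relations over animals used 100000 permutations in Python 3.11.15 with scipy 1.17.1, adjusted over the 12 relations or the 15 pairs; after group means were subtracted, animals were permuted only inside their group. Lists are described by counts and medians. All probe sets of the factors are accounted for. In addition the rule named the up to 4 list genes with the smallest p in a comparison and the 5 genes most like each factor; Gmnc's levels and Deup1 were singled out after their values were seen. The factors, lists and rules were chosen with earlier results of these data known.

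Alternatives changed the pseudocount (1 or 64), the scaling (quantile or median), the filter (none, or above the 75th percentile), the eBayes options (trend, robust), the array weights, the adjustment for RNA integrity and the groups fitted, or left out animals 18 and 22, animals 6, 14 and 18, or 1 animal at a time.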

Additional observations from a re-analysis of the deposited data

Results flagged for a closer look

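The gap between the extreme animal and the next was set against the range of its group for the 9 factor probe sets and that of Gmnc in each group of 4, and 3 of the 50 groups of values examined had an animal far from the others, close to the 2.5 that a chance rate of 1 in 20 gives. For Rfx1, animal 18 in air at 24 h had a signal of 30.7 against 522 to 745 in the other 3 animals, and the gap took up 0.876 of the group's log2 range. For the second probe set of Ccno, which did not pass the filter, the same animal had 772 against 3.76 to 8.55, a share of 0.941. For Rfx3, animal 6 at 3 h after H2S had 482 against 308 to 325, a share of 0.883. Animal 18 had the lowest correlation with the other arrays, and animal 6 is 1 of the 3 whose treatment field disagrees with the title.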

How the results depend on the processing

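No factor was called in any comparison under any setting tried, single animals left out included, and a small count of probe sets past the threshold was sensitive to nearly every choice. Air at 24 h is the control at 3 h, 6 h and 24 h. The counts past the threshold in the fit described were 16 at 3 h, 1 at 6 h, 2 at 24 h and 0 at 144 h against air, 1 for 6 h against 3 h, 2 for 24 h against 6 h and 0 for 144 h against 24 h. With a pseudocount of 1 they were 9 at 3 h, 0 at 24 h, 2 for 6 h against 3 h and 1 for 24 h against 6 h, and with 64 they were 0 at 6 h and 1 for 24 h against 6 h. Quantile normalization gave 1 at 24 h and 0 for 6 h against 3 h. Median centring gave 1 at 24 h, 0 for 6 h against 3 h and 1 for 24 h against 6 h, and it moved the median change of all probe sets against air to 0.26, 0.33, 0.33 and 0.33 at the 4 times, against 0.09, 0.08, 0.07 and -0.02 without it. No filter gave 8 at 3 h and 0 at 24 h, 0 for 6 h against 3 h and 0 for 24 h against 6 h. A stricter filter gave 0 at 24 h, as did the trend and robust options. Array weights gave the largest counts: 67 at 3 h, 68 at 6 h, 52 at 24 h, 1 at 144 h, 110 for 6 h against 3 h, 93 for 24 h against 6 h and 59 for 144 h against 24 h. Without animals 18 and 22 there were 0 at 6 h, 1 at 144 h, 3 for 6 h against 3 h and 4 for 24 h against 6 h. Without animals 6, 14 and 18 there were 8 at 3 h, 0 at 6 h, 1 at 24 h, 2 for 6 h against 3 h and 0 for 24 h against 6 h. Adjusting for RNA integrity on 19 arrays gave 0 at 3 h, 29 at 6 h, 0 at 24 h and 14 for 6 h against 3 h. The same 19 arrays without that adjustment gave 0 at 3 h, 0 at 6 h, 0 at 24 h, 4 for 6 h against 3 h and 0 for 24 h against 6 h. Fitting only the groups compared gave 0 at 3 h, 6 h and 24 h and 0 in both steps from 3 h to 24 h, with fewer degrees of freedom by construction. Leaving out single animals gave 3 to 20 at 3 h, 0 to 11 at 6 h, 0 to 3 at 24 h, 0 to 2 at 144 h, 0 to 31 for 6 h against 3 h and 0 to 9 for 24 h against 6 h. The cause of these shifts was not tested.

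The sign of Foxj1 turned in the comparisons where the fit described gave 0.30 (3 h against air), 0.05 (144 h against air) and 0.15 (144 h against 24 h after H2S). At 144 h against air it was -0.045 with quantile normalization and -0.20 to 0.48 with single animals left out. At 3 h it was -0.55 with the adjustment for RNA integrity, -0.51 on the same 19 arrays without it and -0.055 to 0.71 with single animals left out. For 144 h against 24 h after H2S the range with single animals left out was -0.10 to 0.43. Among relations, those of the proliferation level were near 0 and turned sign: without subtracting the array mean r was 0.119 for Rfx1, 0.00496 for Rfx2 and 0.0161 for Rfx3, and within groups it was 0.216 for Rfx2. With single animals left out r ran from -0.0414 to 0.109 for Rfx1, -0.192 to 0.00951 for Rfx2, -0.166 to 0.0182 for Rfx3 and -0.0724 to 0.175 for Ccno. Among pairs, r of Rfx1 with Rfx2 was -0.0995 within groups and -0.213 without animals 18 and 22, and ran from -0.428 to 0.21 with single animals left out. For Rfx1 with Rfx3 it was -0.382 without animals 18 and 22 and ran from -0.143 to 0.203, and for Rfx1 with Ccno from -0.48 to 0.0348. By Pearson's r the relations of Foxj1, Rfx2, Myb and Ccno with the axoneme level stayed past the threshold in every setting. That of Rfx3 did not pass within groups (r = 0.477, adjusted permutation p = 0.162); permuting inside groups was chosen after the data were seen. With 3 or 4 arrays a group, confidence intervals of the factor changes span about 2 log2 units or more. No paired analysis was possible because no animal number is shared between groups.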

Other observations

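Over the 21 arrays without animals 18 and 22, the 5 genes most like each factor by Pearson's r are given as a description. For Foxj1 they were Ift27 (0.898), of the intraflagellar transport trains, Elof1 (0.897), Bad (0.868), Dnaaf1 (0.864) and Arhgap39 (0.864). For Rfx2 they were Lrrc23 (0.945), Ccdc78 (0.925), Odad3 (0.922), a docking protein of outer dynein arms, Ubxn11 (0.920) and Ccdc17 (0.914). For Rfx3 they were Tbcel (0.926), Bbs5 (0.913), Iqub (0.913), Zc2hc1a (0.901) and Bbs2 (0.900), the Bardet-Biedl genes Bbs5 and Bbs2 having products that carry cargo to cilia. Myb was most like Cfap77 (0.923), Drc1 (0.914), of the axoneme's nexin-dynein links, Spata46 (0.910), Cfap126 (0.905) and Cfap276 (0.903). Ccno was most like Cby1 (0.878), a protein of the basal body, Plaat5 (0.843), Tmem53 (0.839), Cryl1 (0.835) and Dapl1 (0.834). Rfx1 was most like the coat protein gene Copa (0.783), Tubb4a (0.781), Myh6 (0.752), Agap1 (0.745) and Btbd2 (0.744).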
